A study of Homo sapiens with 56 samples.

Results

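The early response to CX-5461 was compared between Mv4;11 and KG-1 as a difference of effects. For each gene, the log2 fold change of 3 h of CX-5461 against vehicle in KG-1 was subtracted from that in Mv4;11. A positive difference therefore means a larger rise, or a smaller fall, in Mv4;11. Genes were included when their symbol was in both deposited tables and their mean level was 5 CPM (read counts normalised to library size) or more in at least 1 of the CX-5461 3 h groups of each line. This gave 9461 genes of 23759 tested, and 9010 of them are protein-coding in RefSeq. The 4 groups were Mv4;11 with 1 µM CX-5461 for 3 h (3 libraries), Mv4;11 with the vehicle of CX-5461 for 3 h (3 libraries), KG-1 with 1 µM CX-5461 for 3 h (4 libraries) and KG-1 with the same vehicle for 3 h (4 libraries). The series holds 56 libraries, which also include PMR-116, another inhibitor of RNA polymerase I, and a time of 12 h. The vehicle was a citric acid and phosphate buffer, per the labels' protocols.

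Mv4;11 and KG-1 are established human acute myeloid leukaemia lines. Mv4;11 carries the MLL-AF4 fusion and an internal tandem duplication of the receptor kinase gene FLT3, and KG-1 is a line of immature, CD34-positive cells. CX-5461 inhibits RNA polymerase I, which transcribes the ribosomal RNA precursor in the nucleolus, and it is also known to stabilise G-quadruplex DNA and to trap topoisomerase II. When ribosome assembly is disturbed, free ribosomal proteins bind MDM2, the ubiquitin ligase that otherwise degrades p53, and p53 then accumulates and activates its target genes. Active p53 also lowers many genes of the G2 phase and mitosis through p21, the product of CDKN1A. Libraries held polyadenylated RNA only, and transcription by RNA polymerase I was therefore not read out here.

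Library totals were 30554698 to 40981473 counts in Mv4;11 and 46747677 to 65927200 in KG-1, and the lowest correlation of log2 CPM between replicates was 0.991 in Mv4;11 and 0.990 in KG-1. Of 10 myeloid and progenitor markers, all but 1 were at 1 CPM or more in each group. The exceptions were CD34, at 0 to 0.39 CPM in Mv4;11, and KIT, at 0.0231 to 0.241 CPM in KG-1. Their summed level was 1320 to 1370 CPM in treated and 1540 to 1600 CPM in vehicle Mv4;11 libraries, and 3170 to 3670 CPM in treated and 3220 to 3620 CPM in vehicle KG-1 libraries. Of 14 erythroid and megakaryocyte markers 12 were under 1 CPM in every group, while ITGA2B averaged 585 CPM in treated and 586 CPM in vehicle KG-1 cells. In bulk RNA, fewer cells of a kind and less RNA per cell cannot be told apart. The labels do not say whether replicates were separate cultures, so p-values measure the spread between these libraries, which may be technical. The lines carry different batch labels, and only the name of the KG-1 table mentions trimming. The line, the batch and the trimming cannot be told apart as sources of a difference of effects.

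More genes passed the threshold in Mv4;11 than in KG-1. In Mv4;11, 1500 of 9461 genes were called at an adjusted p under 0.05 (15.9%), with 655 higher (6.92%) and 845 lower (8.93%). In KG-1, 417 genes were called (4.41%), with 220 higher (2.33%) and 197 lower (2.08%). That split moved with single libraries. Of the KG-1 libraries, it was 113 higher and 130 lower without treated replicate 1, 123 and 115 without treated replicate 2, 363 and 138 without treated replicate 3, 121 and 128 without vehicle replicate 2, 134 and 120 without vehicle replicate 3 and 181 and 99 without vehicle replicate 4. It was 360 and 151 without a Mv4;11 vehicle library of PMR-116 at 12 h. The difference of effects was itself called for 565 genes (5.97%), of which 237 were above 0 (2.51%) and 328 below 0 (3.47%). Over all 23759 genes tested, 730 differences were called (3.07%, with 1.57% above 0 and 1.5% below). The shares called over all genes tested were 8.57% in Mv4;11 (4.34% higher and 4.23% lower) and 2.26% in KG-1 (1.11% higher and 1.15% lower). Read by overlap alone, all treated libraries lay above all vehicle ones for 17.7% of the 9461 genes in Mv4;11 and 6.06% in KG-1. They lay below them for 19.3% and 6.64%. Groups of 3 libraries separate by chance more often than groups of 4, so these shares do not compare the lines. The same limit applies where overlap is given for single genes below. Effects were more spread in Mv4;11, where their SD over the 9461 genes was 0.261 on the log2 scale, against 0.154 in KG-1. The median effect was 0.00106 in Mv4;11 and 0.00649 in KG-1, and the median difference was -0.00899.

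Of the 565 genes with a called difference, 432 were called in Mv4;11 only (194 above 0 and 238 below), 48 in KG-1 only (13 and 35), 27 in both lines in the same direction and 9 in both lines in opposite directions, and 49 were called in neither line alone. The absolute effect was the smaller one in KG-1 for 494 of the 565. A further 905 genes were called in Mv4;11 only and had no called difference, though with the replicate block 212 of these had one. Calls of 163 genes were shared by the lines, which is 10.9% of the Mv4;11 calls and 39.1% of those in KG-1, and 154 of these went the same way. Differences of 2-fold or more were called for 41 genes above 0 and 12 below. Across the 9461 genes the effects in the lines had a Pearson r of 0.301, a description across genes that share libraries and are not independent replicates.

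These counts depend on the design of the fit. Replicate numbers paired the libraries, and with the replicate number as a block 968 differences were called, including all 565, and 878 genes were called in KG-1. Scaling with the size factors of DESeq2 gave 204 differences above 0 and 450 below, so the share above 0 was 31.2%, against 41.9% with the scaling used here.

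**Figure D1:**
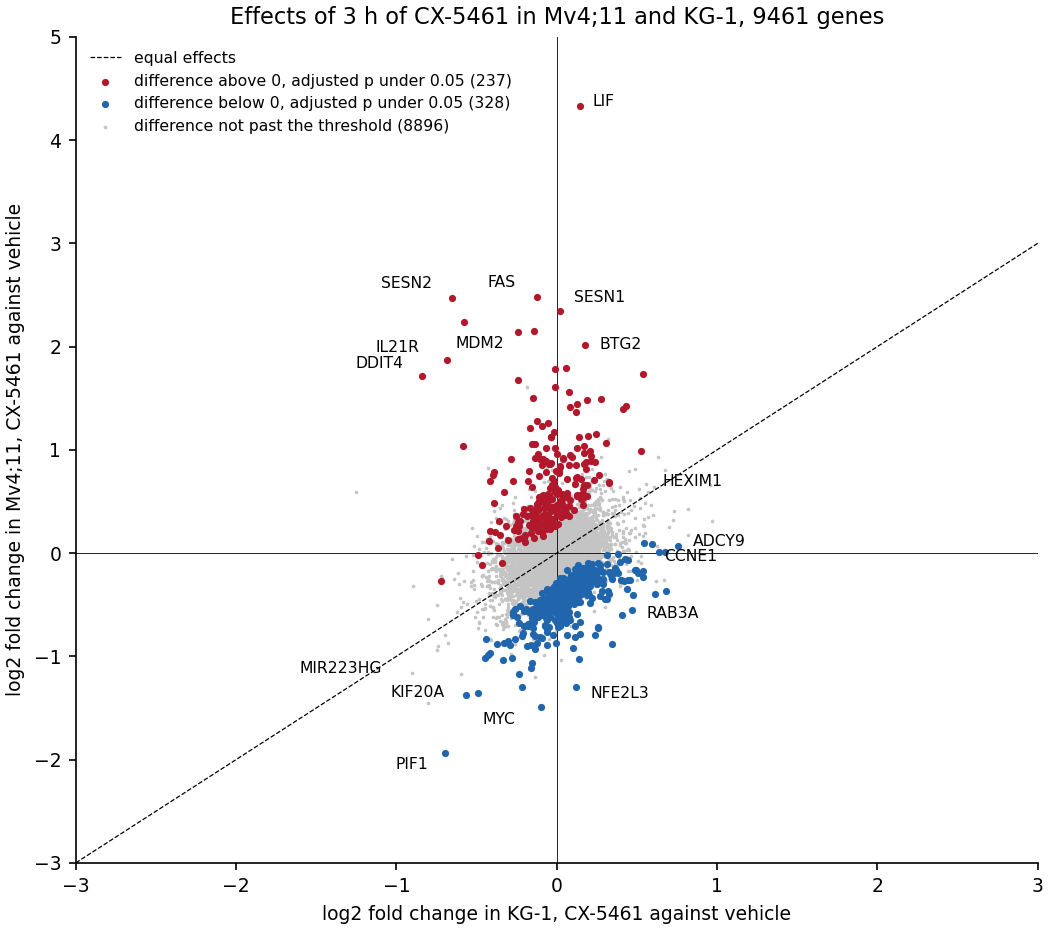
Log2 fold change of 3 h of CX-5461 against vehicle in Mv4;11 (vertical axis) and in KG-1 (horizontal axis) for 9461 genes, where the dashed line marks equal effects. The 237 red genes have a called difference above 0 and the 328 blue genes one below 0. The tall group at the top holds LIF, SESN2, FAS and MDM2, which lie near 0 or below it in KG-1.

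p53 target genes made up much of that group. Of 50 listed targets 38 were among the 9461 genes, and the difference was called above 0 for 31 of them and below 0 for 0. In Mv4;11 33 of the 38 rose and 0 fell, and edgeR called no member lower even at an unadjusted p under 0.05 (DESeq2 gave 31 above 0 and 0 below for the difference). In KG-1 TRAF4 and SERTAD1 rose and SUSD6 fell, and with the replicate block 3 rose and 4 fell. The median over the 38 genes was 0.98 in Mv4;11, -0.0367 in KG-1 and 1.01 for the difference. Not called were APAF1, NINJ1, FUCA1, SUSD6, RPS27L, BAX and PMAIP1, and with the replicate block the differences of BAX (0.33 ± 0.09, adjusted p = 0.0292) and PMAIP1 (0.61 ± 0.15, adjusted p = 0.00864) were called as well. Errors after ± are standard errors.

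The p53 response element was searched, in RefSeq windows from 250 bases before to 50 bases after each annotated start, as a pair of sites of 10 bases on either strand. A spacer of at most 1 base and at most 2 mismatches outside the fixed C and G of each site were allowed. It was found in 5 of the 48 windows of the 31 listed genes that had one (10.4%), in 0.464% of the windows of all included genes and in 0.533% of all 35116 windows. The 4 genes with a match, MDM2, FAS, AEN and DDB2, all had a called difference. They were 4 of 24 genes with a called difference and a window (16.7%), against 0 of 7 without a called difference. These sets are too small to tell the shares apart. Their sequences are shown because they hold the matched element. They are given 5′ to 3′ on the plus strand of GRCh38.p14, with the matched element in capitals, at chr12:68808867-68809016 (MDM2), chr10:88991281-88991430 (FAS), chr15:88621190-88621339 (AEN) and chr11:47214979-47214999 (DDB2). For MDM2, FAS and AEN these are the 150 bases before a start. The matches lie at -94 to -75 in MDM2, -122 to -103 in FAS and -34 to -15 in AEN, each with 2 mismatches, and at 6 to 26 in DDB2 with 0 mismatches. A match describes the letters and does not show binding.
MDM2: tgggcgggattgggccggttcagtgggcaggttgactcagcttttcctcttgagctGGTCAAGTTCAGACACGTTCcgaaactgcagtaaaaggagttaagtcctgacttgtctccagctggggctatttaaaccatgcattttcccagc
FAS: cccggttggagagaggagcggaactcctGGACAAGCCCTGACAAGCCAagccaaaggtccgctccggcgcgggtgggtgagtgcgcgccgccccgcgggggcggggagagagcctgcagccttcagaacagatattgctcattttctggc
AEN: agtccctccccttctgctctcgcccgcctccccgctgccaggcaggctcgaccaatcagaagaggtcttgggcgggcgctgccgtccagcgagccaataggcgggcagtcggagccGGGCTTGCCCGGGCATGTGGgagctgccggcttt
DDB2: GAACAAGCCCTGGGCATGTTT

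MDM2, which encodes the ubiquitin ligase that degrades p53, had 705, 601 and 711 CPM in treated and 136, 145 and 174 CPM in vehicle Mv4;11 libraries. In KG-1 it had 57.3, 49.1, 51.8 and 59.9 CPM in treated and 58.1, 58.6, 60.3 and 63.2 CPM in vehicle libraries. Genes named for the largest differences had to be without overlap in the line with the larger effect. MDM2 met this with a wide gap between the groups in Mv4;11, and those of KG-1 overlapped. The log2 fold change was 2.15 ± 0.10 in Mv4;11 and -0.14 ± 0.08 in KG-1, and the difference was 2.29 ± 0.13 (adjusted p = 4.55e-18). The phosphatase PPM1D, also a negative regulator of p53, had a difference of 1.25 ± 0.10 (adjusted p = 1.34e-12).

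LIF is a cytokine of the interleukin 6 family. It had the largest called difference among included protein-coding genes without overlap in the line with the larger effect. In Mv4;11 LIF passed the 5 CPM limit through its treated group alone (mean 13 CPM, against 0.644 CPM with vehicle). It stood at 15.5, 12.8 and 10.9 CPM in treated and 1.03, 0.41 and 0.492 CPM in vehicle Mv4;11 libraries. KG-1 held 27.3, 23.2, 26.2 and 24.1 CPM with CX-5461 and 25.6, 18.4, 21.3 and 25.9 CPM with vehicle. CX-5461 brought the low level of Mv4;11 closer to that of KG-1, whose groups overlapped. The difference was 4.18 ± 0.30 (adjusted p = 8.19e-15).

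FAS, a death receptor, had 22.9, 20.6 and 21.6 CPM in treated and 3.79, 3.61 and 4.3 CPM in vehicle Mv4;11 libraries, and 9.69, 8.81, 10.9 and 11.2 CPM in treated and 10.9, 10.6, 11.1 and 11.7 CPM in vehicle KG-1 libraries. Its difference was 2.60 ± 0.19 (adjusted p = 7.97e-15), and the KG-1 groups overlapped. In Mv4;11 FAS passed the 5 CPM limit through its treated group alone (mean 21.7 CPM, against 3.9 CPM with vehicle). TNFRSF10B, the death receptor DR5, rose by 1.68 ± 0.09 in Mv4;11, and the difference was 1.92 ± 0.12. In KG-1 its fold change of -0.24 had an adjusted p of 0.143, and with the replicate block it fell (-0.25 ± 0.06, adjusted p = 0.0144). The related receptor TNFRSF10A had a difference of 1.02 ± 0.15. BBC3, which encodes the BH3-only protein PUMA, had 52.2, 43.1 and 50.5 CPM in treated and 12.1, 10.2 and 10.7 CPM in vehicle Mv4;11 libraries, and 4.61, 7.22, 5.18 and 4.85 CPM in treated and 4.63, 7.22, 7.09 and 6.87 CPM in vehicle KG-1 libraries. Its groups overlapped in KG-1 only, and the difference was 2.38 ± 0.23 (adjusted p = 2.27e-10). BBC3 was the only one of 13 genes of the BCL2 family with a called difference, and with the replicate block 3 were called. Without the block 5.97% of all 9461 differences were called, with 2.51% above 0.

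SESN1, an inhibitor of mTORC1 signalling, had 112, 91.2 and 107 CPM in treated and 20.5, 17.8 and 22.7 CPM in vehicle Mv4;11 libraries, and 32.5, 34.2, 45.4 and 43 CPM in treated and 33.4, 33.9, 46 and 39.7 CPM in vehicle KG-1 libraries. Its KG-1 libraries differed more by replicate number than by treatment, and the difference was 2.33 ± 0.17. SESN2, which also restrains mTORC1 and is a target of ATF4 as well, had 97.6, 114 and 120 CPM in treated and 17.3, 20.7 and 21.7 CPM in vehicle Mv4;11 libraries. In KG-1 it had 21.3, 67.9, 41.5 and 44.9 CPM with CX-5461 and 35.6, 89.3, 75.8 and 75.5 CPM with vehicle, where replicate 1 was the lowest in both groups. The difference was 3.12 ± 0.42 (adjusted p = 1.21e-06), and with the replicate block SESN2 fell in KG-1 (-0.69 ± 0.19, adjusted p = 0.0256). BTG2, an antiproliferative gene, had 133, 126 and 145 CPM in treated and 30.8, 35.1 and 34.1 CPM in vehicle Mv4;11 libraries, against 10.9, 9.08, 9.79 and 9.88 CPM in treated and 9.92, 8.07, 8.3 and 8.76 CPM in vehicle KG-1 libraries. The difference was 1.84 ± 0.12 (adjusted p = 1.65e-16), with overlap between the groups in KG-1.

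DNA repair genes on the p53 list rose in Mv4;11 as well. XPC and DDB2, which recognise damaged bases, had differences of 1.16 ± 0.10 and 1.08 ± 0.12, the translesion polymerase POLH one of 1.66 ± 0.22, and RRM2B, a subunit of ribonucleotide reductase, one of 1.38 ± 0.14. Metabolic targets included FDXR (1.49 ± 0.13) and TIGAR (1.62 ± 0.21), and the nuclease AEN reached 0.79 ± 0.12. In KG-1 none of these 7 genes was called.

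Further p53 targets fell under the 5 CPM limit in KG-1 and are not among the 9461 genes. CDKN1A, which encodes p21, had 1088, 1014 and 1173 CPM in treated and 90.9, 94.8 and 112 CPM in vehicle Mv4;11 libraries, against 3.97, 3.16, 3.96 and 4.4 CPM in treated and 2.09, 2.18, 3.15 and 2.75 CPM in vehicle KG-1 libraries. All treated libraries of each line lay above its vehicle libraries, by a small amount in KG-1. The difference was 2.85 ± 0.25 (adjusted p = 8.71e-12), and the KG-1 effect of 0.61 (adjusted p = 0.0822) was called with the replicate block (0.62 ± 0.13, adjusted p = 0.00284). Differences were also called above 0 for NECTIN4 (3.77 ± 0.61), GADD45A (2.53 ± 0.18), CMBL (2.28 ± 0.24) and PLK2 (1.83 ± 0.39). EDA2R, KITLG and SPATA18 had 0 counts in the 8 KG-1 libraries, so no difference of effects can be given for them.

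**Figure D2:**
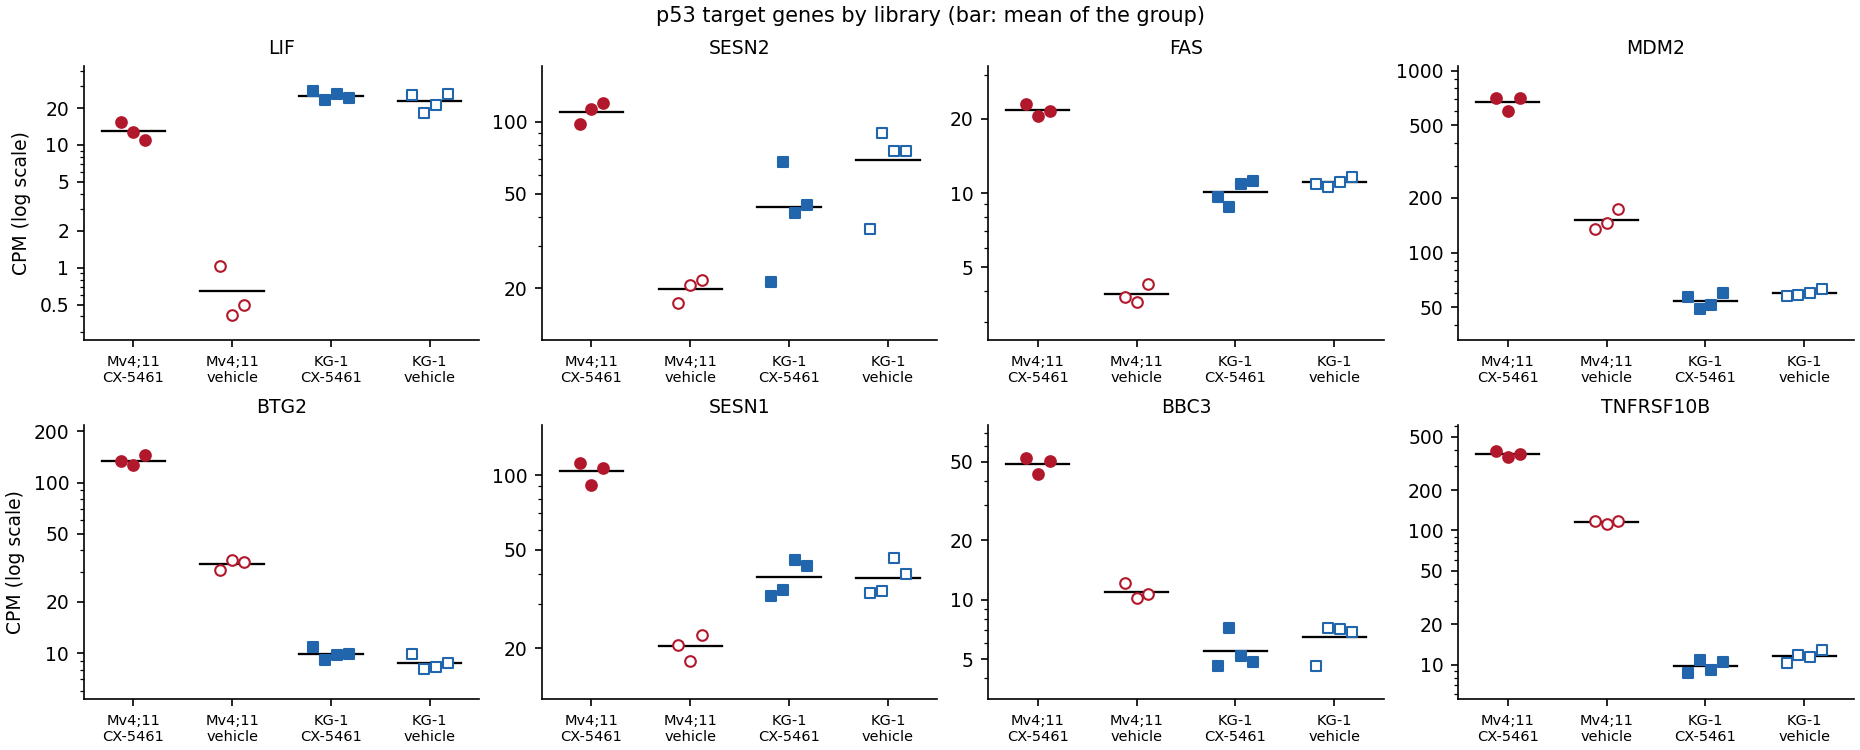
Level of 8 p53 target genes in each library, in CPM on a log axis, with the mean of each group as a bar. Treated Mv4;11 libraries (filled circles) lie above the vehicle ones (open circles) in all 8 targets, and the KG-1 groups (squares) overlap in each. The 8 genes were named from those without overlap in the line with the larger effect, so the Mv4;11 separation was set by the choice.

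Genes of the G2 phase and mitosis fell in both lines, to unequal extents. Of 68 listed genes 65 were included, and the difference was called below 0 for 29 and above 0 for 0. In Mv4;11 53 of the 65 fell and 0 rose, and in KG-1 19 fell and 0 rose. At an unadjusted p under 0.05 edgeR still had 0 differences above 0, against 45 below, and DESeq2 called 0 above and 41 below. The median was -0.541 in Mv4;11, -0.178 in KG-1 and -0.373 for the difference, and 60 of the 65 differences were below 0. The KG-1 count dropped to 9 without treated replicate 2 and to 11 without vehicle replicate 4 of KG-1, while the count of differences stayed between 26 and 35 with any 1 library left out. FOXM1, SGO1, MYBL2, MELK and KNL1 had differences above 0, none of them called.

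Many mitotic promoters hold the CHR, an element bound by the MuvB core of the DREAM complex. It was searched as TTTGAA on both strands (TTCAAA on the other strand) in the same windows. The letters occurred in 61.2% of the 67 windows of the listed genes, in 10% of the windows of all included genes and in 15.2% of all 35116 windows. By gene, the share was 66.7% of 24 listed genes with a called difference and 68.8% of 32 without one, so the motif was about as frequent in either set. The 150 bases before the start are shown for 3 genes with large differences, 5′ to 3′ on the gene's strand of GRCh38.p14 with the motif in capitals. They lie at chr15:64825648-64825797 on the minus strand (PIF1), chr16:23678739-23678888 on the plus strand (PLK1) and chr1:43358831-43358980 on the plus strand (CDC20). The motif sits at -20 to -15 in PIF1, -29 to -24 in PLK1 and -65 to -60 in CDC20.
PIF1: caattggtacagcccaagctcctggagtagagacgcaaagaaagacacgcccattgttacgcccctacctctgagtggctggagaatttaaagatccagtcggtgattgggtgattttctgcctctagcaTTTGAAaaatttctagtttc
PLK1: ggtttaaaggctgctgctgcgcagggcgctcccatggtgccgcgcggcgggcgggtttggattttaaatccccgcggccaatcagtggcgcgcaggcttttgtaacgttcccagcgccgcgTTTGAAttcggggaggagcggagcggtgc
CDC20: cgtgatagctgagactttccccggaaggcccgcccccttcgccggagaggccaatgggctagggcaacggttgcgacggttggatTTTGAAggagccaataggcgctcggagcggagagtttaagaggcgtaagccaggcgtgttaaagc

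PIF1, a DNA helicase, had the largest difference of the list. It stood at 4.17, 3.11 and 2.19 CPM in treated and 15.5, 9.33 and 11.6 CPM in vehicle Mv4;11 libraries, and at 11.8, 10.6, 13.5 and 13.2 CPM in treated and 18.4, 22.4, 19.1 and 19.9 CPM in vehicle KG-1 libraries. The groups did not overlap in either line. The log2 fold change was -1.93 ± 0.20 in Mv4;11 and -0.70 ± 0.16 in KG-1, and the difference was -1.24 ± 0.26 (adjusted p = 0.0017).

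KIF20A, a kinesin of the central spindle, had 32.2, 27.3 and 24.6 CPM in treated and 76.6, 70.5 and 68.2 CPM in vehicle Mv4;11 libraries, and 46.8, 38.6, 39.3 and 42.4 CPM in treated and 58.3, 61.2, 55.6 and 60.4 CPM in vehicle KG-1 libraries. It too fell in both lines without overlap, by 1.35 ± 0.09 in Mv4;11 and by 0.49 ± 0.07 in KG-1, and the difference was -0.86 ± 0.11 (adjusted p = 7.17e-07). PLK1, the polo-like kinase of mitotic entry, had 86.2, 92.7 and 68.9 CPM in treated and 176, 148 and 150 CPM in vehicle Mv4;11 libraries, against 250, 237, 214 and 228 CPM in treated and 266, 266, 249 and 238 CPM in vehicle KG-1 libraries. Its KG-1 groups overlapped (-0.14 ± 0.07, adjusted p = 0.416), and the difference was -0.80 ± 0.11 (adjusted p = 1.79e-06).

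CCNF, an F-box cyclin, fell in Mv4;11 (-0.97 ± 0.06) and in KG-1 (-0.42 ± 0.05), with a difference of -0.55 ± 0.08. The kinesin KIF23 did so as well (-1.03 ± 0.09 in Mv4;11, -0.33 ± 0.08 in KG-1, difference -0.70 ± 0.12). CDC20 and UBE2S, which serve the anaphase-promoting complex, fell in Mv4;11 only by the test, with differences of -0.64 ± 0.10 and -0.61 ± 0.13. The mitotic cyclin CCNB1 had a difference of -0.53 ± 0.11, the checkpoint kinase BUB1 one of -0.50 ± 0.10 and the Aurora kinase AURKB one of -0.46 ± 0.07. For AURKA the difference was -0.33 ± 0.09 (adjusted p = 0.0237), and it was not called without treated replicate 1 of KG-1 (adjusted p = 0.062). CDK1, the kinase partner of CCNB1, fell in Mv4;11 (-0.50 ± 0.10), and its difference of -0.39 ± 0.14 was called with the replicate block (-0.39 ± 0.12, adjusted p = 0.0456) but not without it (adjusted p = 0.127). DEPDC1 fell in both lines, at -0.94 ± 0.15 in Mv4;11 and -0.74 ± 0.13 in KG-1 (difference -0.20 ± 0.20, adjusted p = 0.767).

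**Figure D3:**
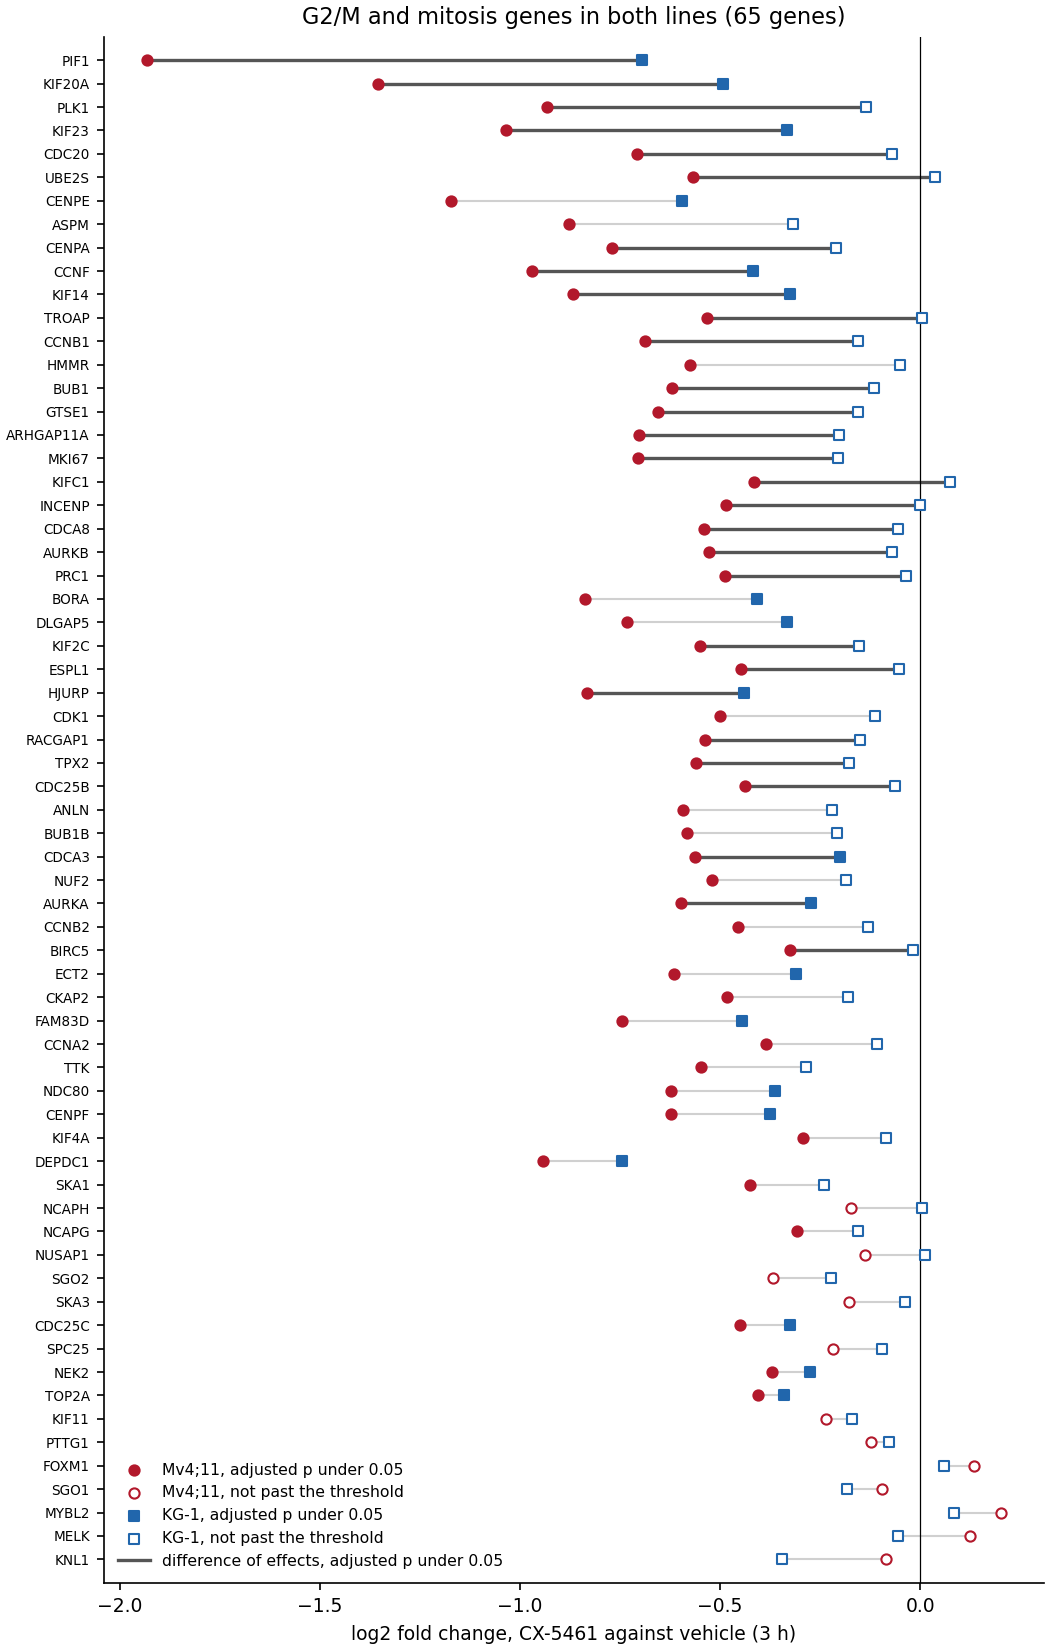
Log2 fold change of 3 h of CX-5461 against vehicle for the 65 G2/M and mitosis genes in Mv4;11 (circles) and KG-1 (squares), ordered by the difference of effects. Filled symbols passed the test in their line and dark connecting lines mark the 29 called differences. In 60 genes the Mv4;11 symbol lies to the left of the KG-1 symbol.

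MYC, a transcription factor of growth control and ribosome synthesis, fell in Mv4;11 and had a called difference. It stood at 156, 145 and 169 CPM in treated and 441, 430 and 451 CPM in vehicle Mv4;11 libraries, against 1022, 1016, 877 and 920 CPM in treated and 1073, 1024, 1031 and 977 CPM in vehicle KG-1 libraries. Overlap between groups was seen in KG-1 only. The log2 fold change was -1.50 ± 0.11 in Mv4;11 and -0.10 ± 0.09 in KG-1, and the difference was -1.40 ± 0.14 (adjusted p = 3.35e-10). Of 39 included genes of the list of MYC and its targets, 5 had a called difference, all below 0, and 10 fell and 1 rose in Mv4;11. Beside MYC these were the cyclin CCND2 (-0.91 ± 0.17), hexokinase HK2 (-0.73 ± 0.20), the transcription factor TFAP4 (-0.71 ± 0.14) and the purine enzyme PPAT (-0.59 ± 0.12). The call of HK2 ended without treated replicate 1 or 3 or vehicle replicate 2 of Mv4;11 (adjusted p of at most 0.0805). The list median was -0.08 in Mv4;11, -0.00142 in KG-1 and -0.104 for the difference.

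Of 20 included genes of the RNA polymerase I machinery, the target of the compound, 6 fell and 1 rose in Mv4;11, and 0 were called in KG-1 (2 higher and 0 lower at an unadjusted p under 0.05 in edgeR, and 0 by DESeq2). With 1 library left out the count that fell was 3 without treated replicate 3 and 3 without vehicle replicate 2 or 3 of that line. The difference was called below 0 for POLR1G and RRN3, and for 4 genes with the replicate block. POLR1G, a subunit of the enzyme, had 41.5, 44.2 and 39 CPM in treated and 65.1, 73.7 and 65.2 CPM in vehicle Mv4;11 libraries, against 74.5, 60.1, 56.5 and 66.6 CPM in treated and 72.6, 50.8, 52.8 and 62.3 CPM in vehicle KG-1 libraries. Its groups overlapped in KG-1 only, and the difference was -0.82 ± 0.20 (adjusted p = 0.00857). RRN3, which recruits the polymerase to the ribosomal DNA, had a difference of -0.31 ± 0.09 (adjusted p = 0.0344) that was not called without treated replicate 1 or vehicle replicate 2 of KG-1 or treated replicate 3 of Mv4;11 (adjusted p of at most 0.0623). The subunit POLR1B fell in Mv4;11 (-0.34 ± 0.11, adjusted p = 0.0461), a call that ended without any of 4 libraries of that line (treated replicates 1 and 3, vehicle replicates 2 and 3), and its difference was -0.37 ± 0.15 (adjusted p = 0.196). The largest subunit POLR1A was at -0.23 ± 0.09 in Mv4;11 (adjusted p = 0.0863, and 0.0204 with the replicate block) and at -0.08 ± 0.07 in KG-1. UBTF, which binds the ribosomal DNA promoter, was at 0.05 ± 0.07 in Mv4;11 and 0.06 ± 0.06 in KG-1, and neither was called.

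Ribosome biogenesis factors fell in Mv4;11. Of 109 included genes 41 fell and 1 rose there, and 0 rose and 1 (PPAN) fell in KG-1. The median was -0.211 in Mv4;11, 0.0103 in KG-1 and -0.189 for the difference, and 94 of the 109 differences were below 0. The difference was called below 0 for 8 genes, SURF6 (-0.61 ± 0.13), URB2 (-0.57 ± 0.11), NOP16 (-0.54 ± 0.14), WDR3, WDR74, NOB1, NAT10 (-0.38 ± 0.07) and DHX33, and above 0 for 0 (43 below and 0 above at an unadjusted p under 0.05 in edgeR, and 26 and 0 by DESeq2). SURF6, a nucleolar protein, had 73.5, 79.7 and 71.6 CPM in treated and 99.2, 112 and 102 CPM in vehicle Mv4;11 libraries, and 180, 162, 148 and 163 CPM in treated and 172, 135, 147 and 141 CPM in vehicle KG-1 libraries. Overlap was seen in KG-1 only. With the replicate block 28 differences were called. With 1 library left out the count rose by more than 1.5 times, up to 20 without treated replicate 3 of KG-1. In Mv4;11 it was 18 without a vehicle library of PMR-116 at 12 h, 16 without treated replicate 2 and 13 or 14 without vehicle replicate 1 or 3, and it was 15 or 14 without vehicle replicate 1 or 4 of KG-1. Of 77 cytosolic ribosomal protein genes 2 rose and 0 fell in Mv4;11, or 10 and 0 with the replicate block, and 0 rose there once treated replicate 2, treated replicate 3, vehicle replicate 1 or vehicle replicate 3 was left out. Of their differences 0 were called, with a median of 0.0278, which was -0.00124 with the size factors of DESeq2. At an unadjusted p under 0.05 edgeR had 3 above 0 and 0 below, and DESeq2 called 0. Of 24 snoRNA host genes 7 fell in Mv4;11, where 8.93% of all 9461 genes fell, and 0 fell in KG-1. SNHG15 (-0.46 ± 0.12) was the 1 with a called difference (4 with the replicate block), beside 3.47% below 0 over all 9461 genes.

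**Figure D4:**
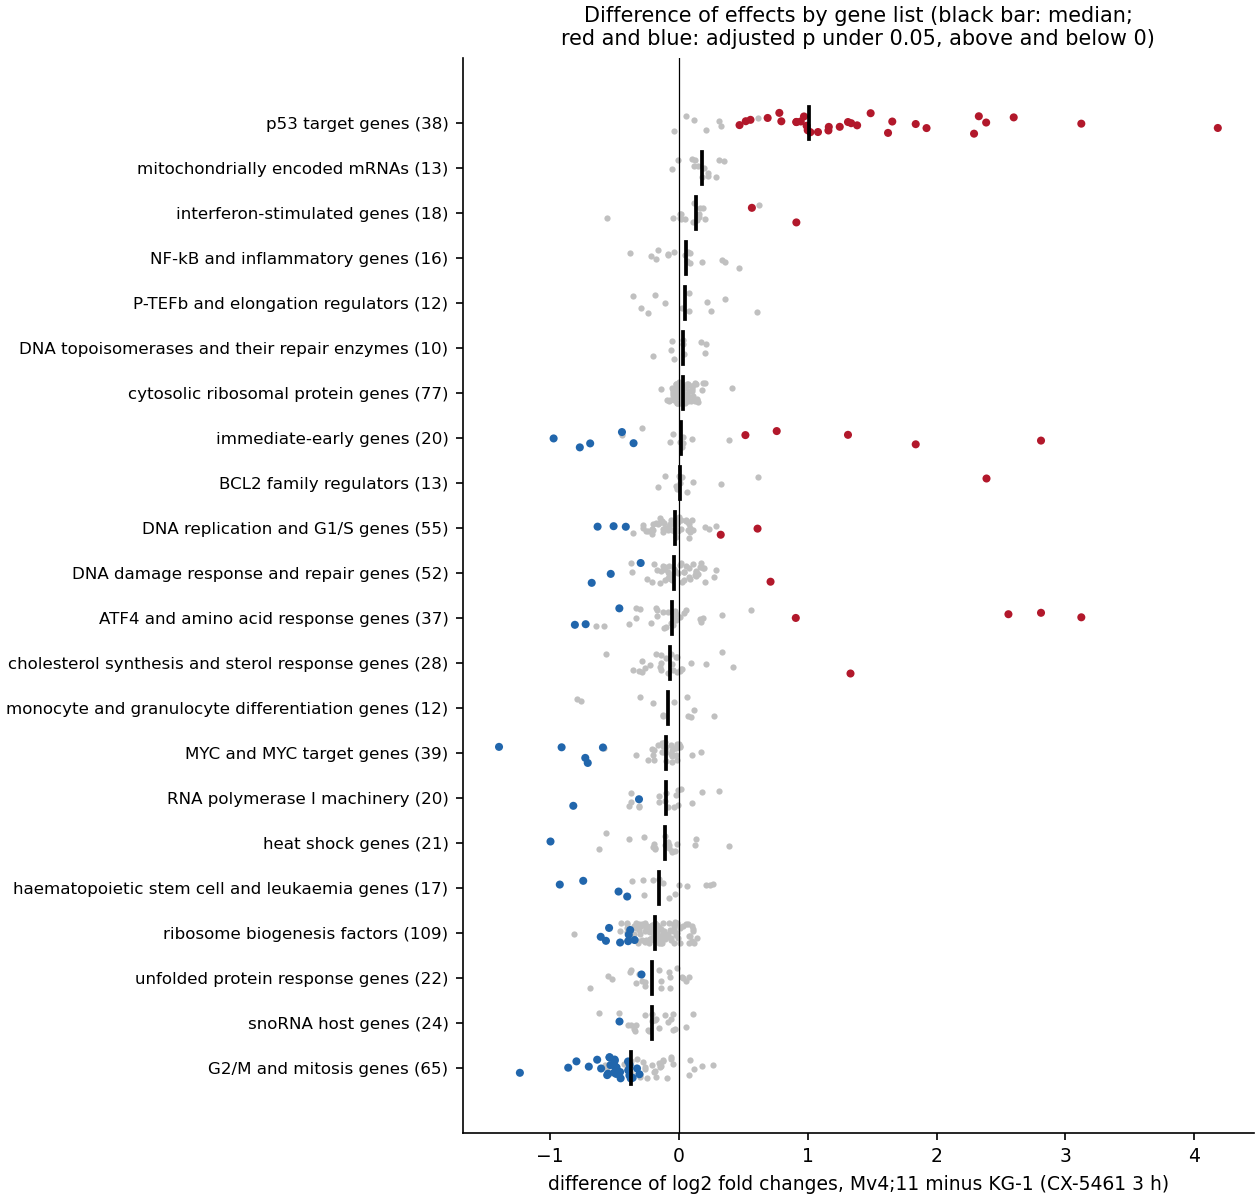
Difference of log2 fold changes, Mv4;11 minus KG-1, for the genes of 22 lists (number of included genes in brackets), ordered by their median (black bar). Red and blue points passed the test above and below 0. p53 targets lie to the right with a median of 1.01 and G2/M and mitosis genes lie to the left with a median of -0.373.

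Immediate-early genes split. Of 20 included genes the difference was called above 0 for ATF3, BTG2, IER5, FOSL1 and BTG1 and below 0 for DUSP2, JUNB, IER2, GADD45B and SRF. The shares over all 9461 genes were 2.51% above 0 and 3.47% below. BTG2 and IER5 are also on the p53 list. IER5 rose in Mv4;11 to 104, 99.9 and 109 CPM, against 40.6, 35.4 and 39.4 CPM with vehicle, and had 92.4, 77.1, 78.7 and 80.5 CPM in treated and 81, 69.2, 75.2 and 75.7 CPM in vehicle KG-1 libraries. Only the KG-1 groups overlapped, with a difference of 1.31 ± 0.09. JUNB, a subunit of AP-1, went the other way, with 54.5, 59.9 and 54.1 CPM in treated and 68.3, 67.5 and 62.8 CPM in vehicle Mv4;11 libraries, and 56.2, 49.5, 43.2 and 41.9 CPM in treated and 37.7, 31.6, 31.9 and 30.5 CPM in vehicle KG-1 libraries. Neither line had overlap between its groups. JUNB rose in KG-1 (0.54 ± 0.10, adjusted p = 0.00056), its effect of -0.24 ± 0.11 in Mv4;11 was not called (adjusted p = 0.219), and the difference was -0.77 ± 0.15 (adjusted p = 0.000604). SRF, which drives the immediate-early promoters, rose in KG-1 (0.26 ± 0.07), with a difference of -0.35 ± 0.10. The count below 0 fell to 3 without treated replicate 3 or vehicle replicate 2 of Mv4;11, or without treated replicate 1 or vehicle replicate 2 of KG-1. In KG-1 2 of the 20 rose and 0 fell, beside 2.33% and 2.08% of all 9461 genes. With the replicate block 5 of the 20 rose there and 1 fell.

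Differences for targets of ATF4, the transcription factor of the integrated stress response, were called in both directions. Of 37 included genes the difference was called above 0 for SESN2, ATF3, DDIT4 and CEBPB and below 0 for PYCR3, SLC1A5 and SLC38A1. The call of SLC38A1 ended when any 1 of 8 libraries was left out (adjusted p of at most 0.118, without vehicle replicate 2 of Mv4;11). ATF3 had 14.6, 12.3 and 8.69 CPM in treated and 2.67, 2.24 and 2.67 CPM in vehicle Mv4;11 libraries, and 5.61, 15.2, 13.6 and 11.5 CPM in treated and 7.86, 17.7, 21.8 and 21 CPM in vehicle KG-1 libraries. As with SESN2, replicate 1 was the lowest KG-1 library in both groups. The difference was 2.81 ± 0.49 (adjusted p = 0.000142). DDIT4, another inhibitor of mTORC1, had 32.5, 27.2 and 33.3 CPM in treated and 9.32, 8.92 and 10.1 CPM in vehicle Mv4;11 libraries, and 42.2, 140, 76.6 and 83.3 CPM in treated and 72.2, 214, 160 and 166 CPM in vehicle KG-1 libraries. Each treated KG-1 library was below the vehicle library of its number. The difference was 2.56 ± 0.47 (adjusted p = 0.000343), and DDIT4 fell in KG-1 with the replicate block (-0.85 ± 0.22, adjusted p = 0.0168). The amino acid transporter SLC1A5 had a difference of -0.73 ± 0.15. PYCR3, a proline synthesis enzyme, fell in both lines (-1.37 ± 0.17 in Mv4;11, -0.57 ± 0.14 in KG-1), with a difference of -0.81 ± 0.22 (adjusted p = 0.0262, and at most 0.0838 with 1 library left out). SESN2 is also on the p53 list. The median difference was -0.0555, and 25 of the 37 differences were below 0. The count called below 0 was 1 without treated replicate 1 of KG-1 or vehicle replicate 2 of Mv4;11. In that line 8 of the 37 genes fell and 4 rose, beside 8.93% and 6.92% of all 9461 genes. With the replicate block 12 fell and 4 rose there. In KG-1 1 of the 37 genes fell and 0 rose, and 5 fell with the replicate block. The list median was -0.126 in KG-1 and -0.205 in the other line.

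DNA replication genes differed in few cases at 3 h, where 2 differences were called above 0 and 3 below. Over all 9461 genes the shares were 2.51% and 3.47%. Of 55 included genes 5 rose and 3 fell in Mv4;11, and 6 rose and 0 fell in KG-1 (10 rose there with the replicate block). PCNA, the sliding clamp of the replication fork and a known p53 target, rose in Mv4;11 to 522, 489 and 531 CPM, against 289, 329 and 311 CPM with vehicle, and had 383, 346, 363 and 371 CPM in treated and 349, 309, 348 and 340 CPM in vehicle KG-1 libraries. The KG-1 groups overlapped, and the difference was 0.61 ± 0.10 (adjusted p = 6.8e-05). TYMS, thymidylate synthase, had a difference of 0.32 ± 0.08. CCNE1 and CCNE2, the cyclins of S phase entry, rose in KG-1 (0.59 ± 0.09 and 0.64 ± 0.12) and were at 0.08 ± 0.10 and 0.01 ± 0.13 in Mv4;11. CCNE1 had 29.7, 36 and 32 CPM in treated and 29, 31.3 and 31.9 CPM in vehicle Mv4;11 libraries, and 35.8, 35.3, 33.7 and 31.9 CPM in treated and 26.8, 18.6, 22.4 and 22.7 CPM in vehicle KG-1 libraries. Only the KG-1 groups were separate. The differences of CCNE1 (-0.51 ± 0.14, adjusted p = 0.0226), CCNE2 (-0.63 ± 0.18, adjusted p = 0.0343) and the helicase subunit MCM4 (-0.41 ± 0.12, adjusted p = 0.0431) each ended with 1 library left out. The highest adjusted p was 0.0558 for CCNE1 (vehicle replicate 2 of KG-1). In Mv4;11 it was 0.162 for CCNE2 without vehicle replicate 2, 0.165 for MCM4 without treated replicate 1 and 0.148 for TYMS without vehicle replicate 1.

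Among DNA damage response genes 1 of 52 differences was called above 0 and 3 below. The shares over all 9461 genes were 2.51% above 0 and 3.47% below, so these counts are near what those shares give. In Mv4;11 RAD51C, a recombination gene, rose (0.69 ± 0.09, difference 0.71 ± 0.12). H2AX, the histone variant marked at DNA breaks, fell there (-0.74 ± 0.13, difference -0.68 ± 0.17), as did the kinase WEE1, which holds back mitotic entry (-0.55 ± 0.08, difference -0.53 ± 0.10). FANCE, of the Fanconi anaemia core complex, had a difference of -0.30 ± 0.09 (adjusted p = 0.0407), which was 0.141 without treated replicate 3 of Mv4;11. For the topoisomerases and their repair enzymes 0 of 10 differences were called (1 at an unadjusted p under 0.05 in edgeR, 0 by DESeq2). TOP2A fell in Mv4;11 (-0.41 ± 0.07) and in KG-1 (-0.34 ± 0.06), with a difference of -0.07 ± 0.09. TOP2B was at -0.14 ± 0.07 in Mv4;11 and -0.09 ± 0.06 in KG-1, neither called. TOP1 rose in Mv4;11 (0.25 ± 0.07, but adjusted p = 0.0564 without vehicle replicate 3), and its difference of 0.21 ± 0.09 (adjusted p = 0.269) was called with the replicate block (adjusted p = 0.0378).

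Haematopoietic transcription factors were among the called differences below 0. Of 17 included stem cell and leukaemia genes these were NFE2 (-0.93 ± 0.13), SOX4 (-0.74 ± 0.13), GFI1 (-0.47 ± 0.10) and HOXA10 (-0.40 ± 0.10). All 4 fell in Mv4;11 and none was called in KG-1. Over all 9461 genes 5.97% of differences were called, with 3.47% below 0. BCL11A, a repressor of fetal globin genes, had 9.71, 7.89 and 5.64 CPM in treated and 17, 11.8 and 15.2 CPM in vehicle Mv4;11 libraries, and 23.1, 24.8, 22.8 and 20.5 CPM in treated and 23.4, 21.4, 20.2 and 20 CPM in vehicle KG-1 libraries. Groups overlapped in KG-1 alone, and the difference was -1.02 ± 0.17 (adjusted p = 0.0001). FLT3, the receptor kinase gene mutated in Mv4;11, fell there (-0.48 ± 0.11) and was at -0.28 ± 0.12 in KG-1 (adjusted p = 0.252), with a difference of -0.20 ± 0.16 (adjusted p = 0.665). Of 12 monocyte and granulocyte genes 0 differences were called (3 at an unadjusted p under 0.05 in edgeR, 2 by DESeq2), and 2 were with the replicate block.

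Among protein-coding genes without overlap in the line with the larger effect, the largest called falls relative to KG-1 included other regulators. NFE2L3, a bZIP transcription factor, had 7.53, 11.8 and 14.4 CPM in treated and 26.6, 31.6 and 24.8 CPM in vehicle Mv4;11 libraries, and 23.1, 21.2, 36.4 and 26.2 CPM in treated and 24.9, 18.9, 27 and 27.6 CPM in vehicle KG-1 libraries. Only the KG-1 groups overlapped, and the difference was -1.42 ± 0.30 (adjusted p = 0.00222). The clock repressor NR1D1 had a difference of -1.16 ± 0.20, the ubiquitin ligase TRIM13 one of -0.95 ± 0.13, the phosphatase DUSP2 one of -0.97 ± 0.23 and the RNA-binding protein MEX3A one of -1.22 ± 0.23. UGCG, which makes glucosylceramide, had a difference of -1.04 ± 0.18, and KBTBD11 one of -1.07 ± 0.18. KBTBD11 was called in KG-1 too with the replicate block (-0.22 ± 0.06, adjusted p = 0.0375). TMEM144 had a difference of -0.94 ± 0.23 (adjusted p = 0.0128, and 0.0564 without treated replicate 3 of Mv4;11). On the other side TNFSF9, the ligand of the costimulatory receptor 4-1BB, had a difference of 1.79 ± 0.21.

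The remaining lists held few called differences. Over all 9461 genes 5.97% of differences were called, and in Mv4;11 8.93% of genes fell and 6.92% rose. Of 18 interferon-stimulated genes TRIM22 (0.91 ± 0.11), also on the p53 list, and PML (0.57 ± 0.09), which organises nuclear bodies, were called above 0. PML was called in KG-1 as well with the replicate block (0.15 ± 0.04, adjusted p = 0.0384). Of 28 sterol genes STARD4, a cholesterol carrier, was called (1.32 ± 0.23), and in Mv4;11 2 of the list fell (5 with the replicate block). The unfolded protein response list had 1 of 22 called, SYVN1 (-0.30 ± 0.08, adjusted p = 0.122 with no filter and 0.0714 with only the 14 libraries). With the replicate block 7 of its differences were called, all below 0. In Mv4;11 5 of the 22 fell, or 9 with the replicate block, and 0 rose. Of 21 heat shock genes HSPA1B was called (-1.0 ± 0.25, adjusted p = 0.0118, and 0.0625 without vehicle replicate 3 of Mv4;11), and 3 were with the replicate block. HSPA1B is nearly identical to HSPA1A, so its estimated count is uncertain. By edgeR 0 differences were called among 16 NF-kB genes, 13 mitochondrially encoded mRNAs and 12 regulators of the elongation factor P-TEFb. At an unadjusted p under 0.05 the counts were 4, 2 and 4, and by DESeq2 they were 0, 0 and 1. Of the NF-kB genes 4 rose in Mv4;11, or 1 without treated replicate 2 and 2 without vehicle replicate 3 of that line. HEXIM1, the inhibitor of P-TEFb, rose in both lines. HEXIM1 had 71.4, 80.7 and 75.7 CPM in treated and 50.5, 50.6 and 50.1 CPM in vehicle Mv4;11 libraries, and 68.7, 65.2, 59 and 59.3 CPM in treated and 46.2, 41, 41.2 and 41.4 CPM in vehicle KG-1 libraries. Treated libraries lay above vehicle libraries throughout. Its log2 fold change was 0.59 ± 0.07 in Mv4;11 and 0.57 ± 0.06 in KG-1, with a difference of 0.02 ± 0.09.

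Effects went in opposite directions, called in each line, for 9 genes. IL21R and JAK3 rose in Mv4;11 and fell in KG-1. The reverse held for RAB3A, CSRNP1, TGIF2, SLC35C1, TRIM27, KLF13 and MAFG. The last 5 lie outside the naming rule and are given because the set is small. With the replicate block more genes were called in opposite directions. Among listed genes, CEBPA rose in KG-1 (0.50 ± 0.07, adjusted p = 1.26e-06) and fell in Mv4;11 (-0.26 ± 0.07, adjusted p = 0.0129). ASCC3 fell in KG-1 (-0.26 ± 0.08, adjusted p = 0.0466) and rose in Mv4;11 (0.26 ± 0.09, adjusted p = 0.0488). Without the block neither gene was called in either line. IL21R, the receptor of interleukin 21, had 27.9, 29.9 and 41.2 CPM in treated and 7.38, 9.69 and 9.98 CPM in vehicle Mv4;11 libraries, and 2.58, 4.63, 3.44 and 3.78 CPM in treated and 3.67, 7.31, 5.71 and 6.56 CPM in vehicle KG-1 libraries. Only the KG-1 groups overlapped, with replicate 1 the lowest of each. In KG-1 IL21R passed the 5 CPM limit through its vehicle group alone (mean 5.81 CPM, against 3.61 CPM with CX-5461). The log2 fold change was 1.87 ± 0.21 in Mv4;11 and -0.69 ± 0.19 in KG-1, and the difference was 2.56 ± 0.28 (adjusted p = 4.88e-09).

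JAK3, the kinase that signals from the common gamma chain paired with IL21R, had 12.5, 10.9 and 12.4 CPM in treated and 8.49, 7.25 and 7.93 CPM in vehicle Mv4;11 libraries, and 74.1, 87.2, 87.6 and 79 CPM in treated and 96.2, 108, 108 and 98.4 CPM in vehicle KG-1 libraries. Neither line had overlap. The difference was 0.92 ± 0.15 (adjusted p = 5.61e-05). RAB3A, a GTPase of vesicle release, had 5.98, 8.1 and 6.67 CPM in treated and 9.55, 10.5 and 10.3 CPM in vehicle Mv4;11 libraries, and 7.64, 6.96, 5.96 and 5.71 CPM in treated and 6.09, 3.91, 4.32 and 4.6 CPM in vehicle KG-1 libraries. The KG-1 groups overlapped through vehicle replicate 1, and the difference was -1.02 ± 0.19 (adjusted p = 0.000347). In KG-1 RAB3A passed the 5 CPM limit through its treated group alone (mean 6.57 CPM, against 4.73 CPM with vehicle). CSRNP1, a nuclear protein, had 5.45, 5.77 and 5.93 CPM in treated and 7.46, 7.72 and 6.58 CPM in vehicle Mv4;11 libraries, and 18.1, 15.9, 15.9 and 14.8 CPM in treated and 14.3, 11.3, 11.7 and 10.5 CPM in vehicle KG-1 libraries. Both lines were without overlap, and the difference was -0.78 ± 0.14 (adjusted p = 0.000357). The called differences of these 4 genes held with any 1 library left out, but the weaker of the own-line effects did not. The KG-1 call of IL21R ended without any of 6 KG-1 libraries (adjusted p of at most 0.195), and that of JAK3 without any of 13 of the 14 compared libraries, or without a 12 h vehicle library of PMR-116 (at most 0.162). The KG-1 call of RAB3A ended without any of 5 KG-1 libraries (at most 0.136) and its Mv4;11 call without treated replicate 1 (0.0683). The Mv4;11 call of CSRNP1 ended without any of 5 libraries of that line (at most 0.161).

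Effects larger in KG-1 were fewer and smaller. ADCY9, an adenylate cyclase, had 132, 144 and 140 CPM in treated and 127, 136 and 135 CPM in vehicle Mv4;11 libraries, and 8.74, 11.7, 8.34 and 14.2 CPM in treated and 7.6, 6.23, 6.32 and 5.21 CPM in vehicle KG-1 libraries. It rose in KG-1 without overlap (0.76 ± 0.11), where its level is far lower, and the difference was -0.69 ± 0.16 (adjusted p = 0.00467). With only the 14 libraries of this comparison in the fit, its adjusted p was 0.0613. KLHL26 and the clock gene TEF rose in KG-1 (0.67 ± 0.13 and 0.68 ± 0.19), with differences of -0.66 ± 0.19 and -1.05 ± 0.30. HYLS1, a centriolar gene, fell in KG-1 (-0.72 ± 0.09) and was at -0.27 ± 0.09 in Mv4;11 (adjusted p = 0.0632, and 0.0213 with the replicate block), with a difference of 0.45 ± 0.13. The differences of KLHL26 (adjusted p = 0.0453), TEF (0.0414) and HYLS1 (0.0326) each ended with 1 library left out, at 7, 8 and 8 of the libraries (highest adjusted p = 0.14, 0.226 and 0.154). The KG-1 call of TEF ended too (at most 0.245). CDK5R1, the activator of CDK5, rose in KG-1 (0.61 ± 0.17, adjusted p = 0.0399), a call that ended without any of 6 KG-1 libraries, and had a difference of -1.01 ± 0.26 (adjusted p = 0.0154, and 0.0524 with only the 14 libraries).

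Some genes were called in both lines in the same direction, with no called difference. MIR223HG, the host gene of the myeloid microRNA miR-223, had 31.2, 25.6 and 36.4 CPM in treated and 64.3, 73.1 and 71.2 CPM in vehicle Mv4;11 libraries, and 15.1, 16.2, 23.5 and 21.2 CPM in treated and 29.7, 39.2, 36.6 and 36.6 CPM in vehicle KG-1 libraries. No library overlapped between the groups of a line, and the difference was -0.26 ± 0.23 (adjusted p = 0.711). The folate carrier SLC19A1 fell by 0.87 ± 0.13 in Mv4;11 and by 0.68 ± 0.11 in KG-1. AL118506.1 fell as well (-0.64 ± 0.15 in Mv4;11, -0.81 ± 0.12 in KG-1). Rises in both were called for MYORG, a glycosidase, and for FAM222A, with log2 fold changes of 0.81 ± 0.18 and 0.65 ± 0.16 in Mv4;11 and of 0.67 ± 0.15 and 0.95 ± 0.13 in KG-1. The call of FAM222A ended without treated replicate 2 or vehicle replicate 1 of Mv4;11 (adjusted p of at most 0.117).

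**Figure D5:**
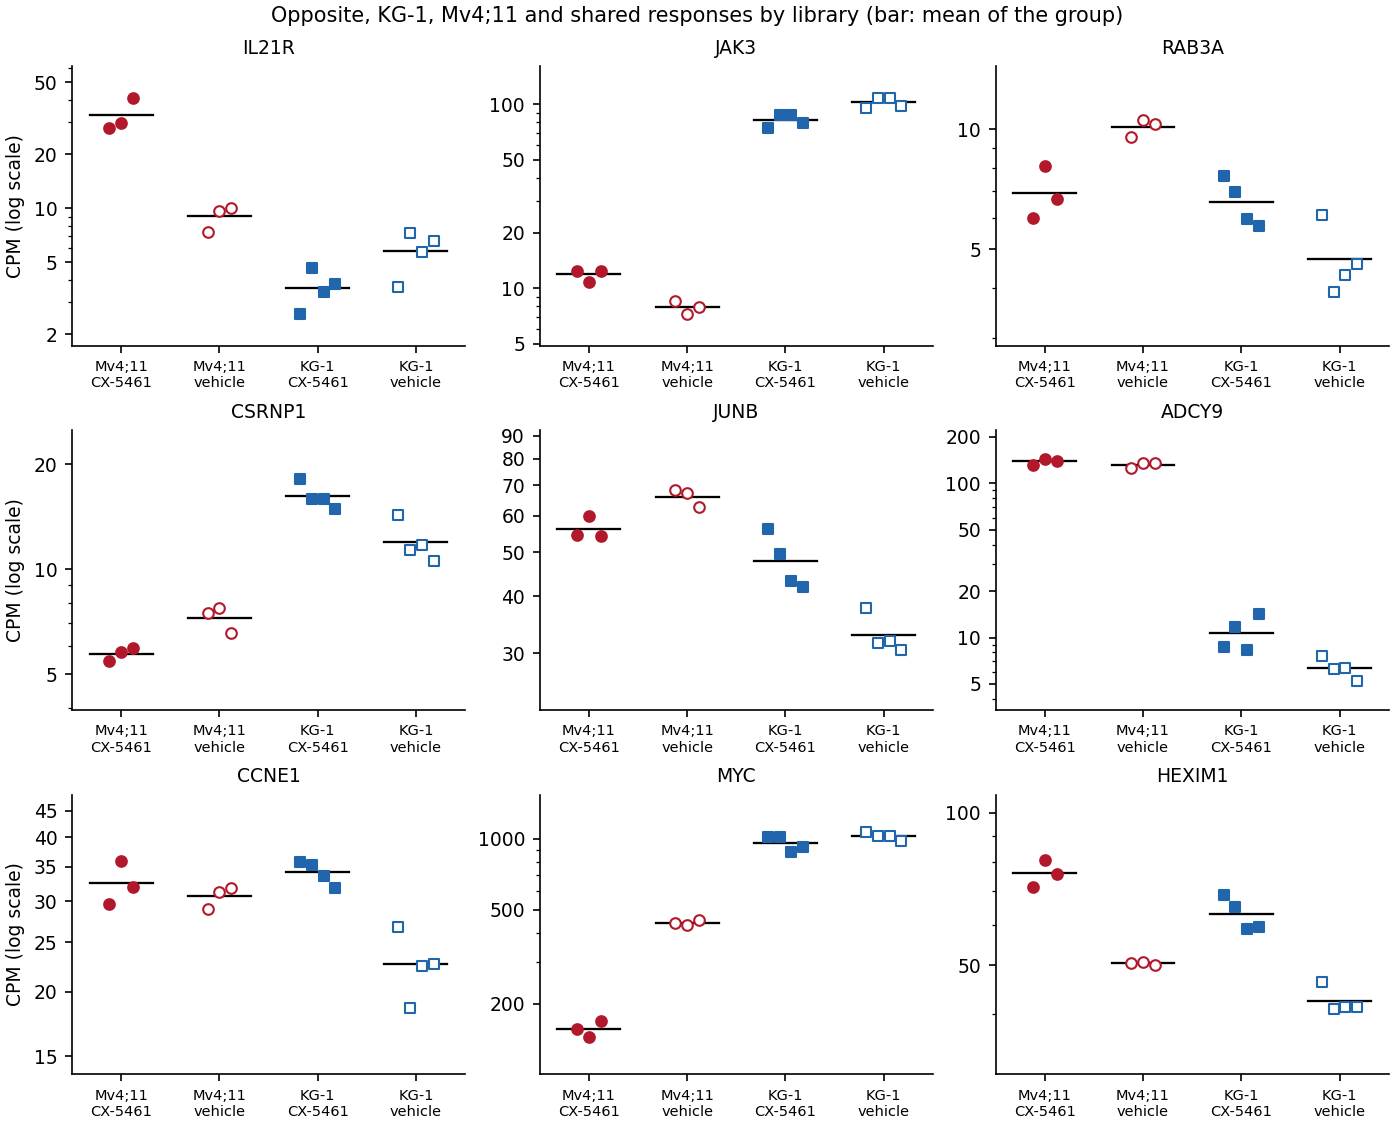
Level of 9 further genes in each library, in CPM on a log axis, with the mean of each group as a bar. IL21R and JAK3 move up in Mv4;11 and down in KG-1, RAB3A and CSRNP1 the other way, JUNB, ADCY9 and CCNE1 are higher in treated KG-1 libraries (squares), MYC is lower in treated Mv4;11 libraries (circles), and HEXIM1 is higher in treated libraries of both lines.

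The same line difference was computed for PMR-116 at 3 h and for CX-5461 at 12 h, each with its own vehicle libraries. These contrasts share no library with the comparison above, but all come from 1 joint fit with a shared estimate of the spread. Without a Mv4;11 vehicle library of PMR-116 at 12 h, the 565 calls above became 677. Repeated calls are therefore not fully independent. For PMR-116 at 3 h 1156 of the 9461 differences were called (12.2%), with 497 above 0 (5.25%) and 659 below (6.97%), or 1802 with the replicate block. Over all genes tested the shares were 6.94% (3.75% above 0 and 3.19% below) for PMR-116 and 16.2% (7.18% above and 9.04% below) for 12 h. Of the 565 genes above, 334 were called for PMR-116 in the same direction and 1, AURKA, in the opposite one (0.28 for PMR-116, adjusted p = 0.0389). For CX-5461 at 12 h 2976 differences were called (31.5%), with 1027 above 0 (10.9%) and 1949 below (20.6%), and 276 of the 565 were called in the same direction and 22 in the opposite one. Across the 9461 genes the 3 h CX-5461 difference had an r of 0.685 with the PMR-116 difference and of 0.363 with the 12 h difference, as descriptions across genes.

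Differences of p53 targets were again mostly above 0, with 29 of 38 differences called above 0 and 1 (APAF1) below for PMR-116 at 3 h, and 26 above and 0 below for CX-5461 at 12 h. Their median difference was 0.729 and 0.594, beside 1.01 for CX-5461 at 3 h. MDM2 was at 1.40 for PMR-116 and 1.67 at 12 h, beside 2.29, and LIF at 2.76 and 2.57, beside 4.18. Of the G2/M list 4 differences were called below 0 and 1 above for PMR-116, with a median of -0.0339. KIF20A was at -0.01 for PMR-116 and 0.03 at 12 h, and PIF1 at -0.12 and 0.24, none of them called. At 12 h of CX-5461 38 of the 65 were called below 0, with a median of -0.381. A difference between these comparisons was not itself tested. DNA replication genes, with 5 called differences at 3 h of CX-5461, had 55 of 55 called below 0 at 12 h, with a median of -1.21. PCNA and TYMS, above 0 at 3 h, were at -0.57 and -0.72 at 12 h, both called. Ribosome biogenesis factors had 46 of 109 differences called below 0 for PMR-116 (median -0.319) and 58 at 12 h (median -0.355). Of the RNA polymerase I machinery 6 of 20 were called below 0 for PMR-116 and 10 at 12 h. MYC was at -1.67 for PMR-116 and -0.43 at 12 h, and CCND2 was called below 0 for PMR-116 (-0.90) and above 0 at 12 h (0.51). Of the opposite genes, the difference of IL21R was 0.96 for PMR-116 (adjusted p = 0.0275) and 1.5 at 12 h, and that of RAB3A -0.98 and -0.83. That of CSRNP1 was -0.30 (adjusted p = 0.234) and 0.08 (adjusted p = 0.823). For JAK3 the difference was 0.46 for PMR-116 (adjusted p = 0.053) and 1.29 at 12 h.

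The 5 CPM limit decides which genes are described and plays no part in the test. Some named genes passed it in a line through 1 group alone. In Mv4;11 they included LIF, FAS, ATF3, MYORG and FAM222A through treated libraries and PIF1, NR1D1 and TMEM144 through vehicle libraries. In KG-1 they included RAB3A and CDK5R1 through treated libraries and IL21R, HYLS1 and FLT3 through vehicle libraries. Just inside the limit lay DTX4, ACYP1 and AL365181.3, with differences of -0.92, 0.00567 and 0.18. Their higher group in the line with the lower level averaged 5.002, 5.007 and 5.017 CPM. Just outside it lay AGAP9, LRRC20 and AL139384.1, at 4.995, 4.988 and 4.987 CPM, with differences of 0.0409, 0.0746 and 0.0688. Of the 14298 tested genes that were not included 165 had a called difference.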

How the data were processed

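One table per line was deposited, holding estimated counts per gene. Per the submitters' processing notes, Salmon 1.5.2, DESeq2 and the build GRCh38.p13 were used, with no roles given. The strand setting of the counting is not given in the sources used here. Of values above 0, 99.98% (Mv4;11) and 100% (KG-1) were not whole (tolerance 1e-06), and all were rounded. A set of 24 columns matching no sample was not used.

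All 56 libraries (16 groups) were fitted together in edgeR 4.0.16 (R 4.3.3, limma 3.58.1) by the quasi-likelihood test, with TMM scaling, the filterByExpr filter (minimum count 10, total 15) and Benjamini-Hochberg adjustment over 23759 genes. Genes were called at an adjusted p under 0.05, and adjusted p-values come from this fit unless named otherwise. CPM are scaled to TMM-adjusted library size. Alternatives were DESeq2 1.42.0, other scalings, no filter, fewer libraries, a replicate block and leaving out single libraries.

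Libraries of the same number deviated together from their group means (r of 0.23 to 0.401 in Mv4;11 and 0.169 to 0.502 in KG-1), so the numbers pair them, although replicate 3 of KG-1 reached 0.164 with another number, beside 0.169 with its own. The pairing comes from this correlation and not from a stated batch or day. The naming rules took genes with the largest differences, with opposite, shared or KG-1-larger effects, and the leading genes of each list. Other genes of the lists are named beside these. A fixed set around p53, MYC, RNA polymerase I and topoisomerases was added. A gene of that set is not reported here. The largest called differences were ranked among protein-coding genes with no overlap between treated and vehicle libraries in the line with the larger effect. Separation of the groups in that line was therefore a condition of the choice. Members and lists were chosen with earlier results of these data known. Symbols matched RefSeq for 9156 of the 9461 genes, and promoter windows are from RefSeq on GRCh38.p14.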

Additional observations from a re-analysis of the deposited data

Results flagged for a closer look

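The effects of CX-5461 differed between the lines, by a test of the difference itself, for 565 genes, and 9 of these were called in opposite directions. The named ones among the 9 had differences of 2.56 (IL21R), -1.02 (RAB3A), 0.92 (JAK3) and -0.78 (CSRNP1) on the log2 scale.

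In 156 groups of 4 KG-1 libraries, over 78 genes chosen by the naming rules, 1 library was compared with the others. In 6 groups it stood far from them, and chance gives about 1 in 20. Vehicle replicate 1 had 4.63 CPM of BBC3 (6.87 to 7.22 in the others), 5.17 CPM of CDK5R1 (2.59 to 2.84) and 46.2 CPM of HEXIM1 (at most 41.4). Treated replicate 1 had 197 CPM of H2AX (152 to 156) and 25.8 CPM of RAD51C (23.9 to 24.1). Treated replicate 2 had 768 CPM of SLC1A5 (560 to 595).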

How the results depend on the processing

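The 565 called differences became 968 with the replicate block, 889 with DESeq2 and 1196 with the block and only the 14 libraries compared, an alternative chosen after seeing the data. With 1 library left out they ran from 417 to 677. The 417 KG-1 calls became 878 with the replicate block, 828 with DESeq2, 261 with only the 14 libraries, 630 when adjusted over the included genes alone and 1111 with the block and the 14 libraries. With 1 library left out they ran from 238 to 511, and were 243 and 238 without treated replicates 1 and 2 and 249 and 254 without vehicle replicates 2 and 3 of KG-1. The Mv4;11 calls became 2451 with the block and the 14 libraries, and ran from 1107 to 1563 with 1 library left out. The PMR-116 line differences became 1802 with the replicate block, with 752 above 0 and 1050 below. Beyond the calls given above, the block called NINJ1 (0.32), FOSL1 (0.30), IER2 (0.26), GADD45B (0.25) and URB2 (0.20) in KG-1 and PMAIP1 (0.38) and MYBL2 (0.20) in Mv4;11.

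DESeq2 size factors moved the split of KG-1 calls to 294 higher and 166 lower, and that of the PMR-116 differences to 370 and 908 (230 and 846 with no filter). Library totals moved the 12 h differences to 1395 and 1712. The cause of these shifts was not tested. Of 64 genes chosen by the naming rules with a called difference, 14 lost the call with 1 library left out and 17 in at least 1 alternative. None of these 64 called differences reversed. List genes named beside them, such as AURKA, are not part of these counts. The median standard error of a difference was 0.122, which limits what these libraries can resolve.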
